A study of Drosophila melanogaster with 8 samples.

Results

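The genes described here encode the proteins that fill, dock, fuse and recycle synaptic vesicles, together with enzymes and transporters that supply the main neurotransmitters. They were chosen by name: a list of 38 symbols was matched to the deposited tables, and 32 genes had a row in both, of 17321 genes in all. The other 6 symbols are alternative spellings (n-syb, syt, SNAP25, endoA, synj and Cha) of genes already counted. RNA was sequenced from whole Drosophila melanogaster embryos of stages 8 to 16, from frozen collections of 50 mg, so each library pools many embryos of mixed age. In Quad embryos (n = 2 libraries) the driver da-Gal4 expressed the 4 transcription factor genes ase, SoxN, wor and Kr from UAS transgenes. In QuadD embryos (n = 2) da-Gal4 was combined with ase-Vp16, SoxN-EnR and wor-EnR, that is with forms fused to an activation or a repression domain, and with unmodified Kr. Each was compared with da-Gal4 over OregonR from its own experiment, named Ctrl (n = 2) and Ctrl-D (n = 2), so all 4 groups carry the driver. The daughterless driver is active in nearly all cells of the embryo. OregonR stands in the control genotypes, so that strain background cannot be told apart from the transgenes, and each experiment was sequenced on 1 lane of its own.

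At a synapse, a vesicle loaded with transmitter is brought to the active zone, a protein scaffold beside the calcium channels. SNARE proteins on the vesicle and on the plasma membrane zip together, synaptotagmin senses calcium and triggers fusion, and the vesicle membrane is then retrieved by endocytosis. Most of these proteins are made mainly by neurons that have stopped dividing, and in the fly embryo their genes are switched on late. Several members, such as the dynamin gene shi and the Sec1-type gene Rop, also serve membrane traffic in other cells. In RNA of whole embryos, fewer neurons and less RNA per neuron cannot be told apart.

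Depth, judged from genes whose raw reads run parallel to RPKM (reads divided by transcript length and by the library's mapped reads), was between 82.9% and 87.2% of the deepest library (QuadD replicate 1) in the Quad and Ctrl libraries. It was between 39.6% and 42.5% of it in QuadD replicate 2 and the Ctrl-D libraries. RNA of the misexpressed genes ase and wor rose in Quad and in QuadD, by log2 fold changes between 1.60 and 2.08. SoxN rose in QuadD (0.41 ± 0.10, adjusted p = 0.0162) but did not pass in Quad (0.35 ± 0.12, adjusted p = 0.0536). RPKM is given per gene, so RNA from a transgene and from the endogenous gene cannot be told apart. Kr rose in Quad (1.33 ± 0.15, adjusted p = 0.00123). In QuadD, Kr stood at 64.8 and 67.4 RPKM against 69.2 and 57.5 RPKM in Ctrl-D and did not pass (0.066 ± 0.11, adjusted p = 0.637).

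In QuadD embryos most synaptic genes rose. Of the 30 members with enough RNA to be tested, 23 rose and 1, the monoamine transporter gene Vmat, fell, while of all genes tested in that comparison 27.4% rose and 27.7% fell (55% in either direction). The QuadD pair was clear of the Ctrl-D pair on the upper side for 26 of these 30 members, on the lower side for 2 (Rim and Vmat) and overlapped it for 2 (Rop and Syt7), where 42.2% of all genes tested lay above and 39.1% below. The median log2 fold change was 0.77 over the members and 0.034 over all genes. In Quad embryos 7 of 32 members rose and none fell, against 24.9% and 22.6% of all genes, so that the share of members called was near the background, although their median log2 fold change was 0.55 against 0.053 for all genes. The Quad pair was clear of the Ctrl pair on the upper side for 19 members and on the lower side for none, against 41.5% and 35.6% of all genes. Without the filter on low values 9 of 32 members rose in QuadD and 2 of 32 in Quad, where 7.44% and 7.43% of all genes rose. All 7 genes that rose in Quad (Csp, EndoA, Gad1, Rph, Syx1A, comt and nSyb) were among the 23 that rose in QuadD, which makes 100% of the first list and 30.4% of the second. With 23 of 30 members tested rising in QuadD, most genes of any such list would be among them. The share of all genes that rose in both comparisons was not counted. Levels are deposited RPKM. A fold change is the log2 difference of log2(RPKM + 1) means ± its SE, a scale that understates the change of low genes. Adjusted p-values are limma's, over all genes tested, and a gene rose or fell where its value was under 0.05.

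The 2 Quad libraries differed for these genes. Quad replicate 1 lay above both Ctrl libraries for 32 of 32 members, with a median ratio to the Ctrl mean of 2.17-fold. Quad replicate 2 lay above both Ctrl libraries for 19 members, between them for 7 and below both for 6, with a median ratio of 1.14-fold. Over all genes tested the medians were 1.05-fold and 1.03-fold, and the shares above both Ctrl libraries were 49.5% and 47.5%. In Quad replicate 2, 4505 of 10436 genes tested lay below both Ctrl libraries. Replicate 1 exceeded replicate 2 for all 32 members (31 with RLE scaling), by a median of 1.93-fold, whereas it exceeded replicate 2 for 49.2% of all genes. The ratio of replicate 1 to replicate 2 ran from 1.01-fold for EndoA to 2.76-fold for stnA. Without Quad replicate 2, 26 of 30 members tested rose, against 25.9% of all genes. Without Quad replicate 1, 5 of 29 rose (Csp, EndoA, Gad1, Syx1A and nSyb), against 26.5% of all genes, and Vmat fell. Without Ctrl replicate 1, 2 of 32 rose, and without Ctrl replicate 2, 3 of 31 did, in fits where 14.8% and 12.9% of all genes rose. In QuadD, replicate 1 exceeded replicate 2 for 17 of 30 members, by a median of 1.02-fold, and for 4483 of 10207 genes tested. The median ratios of the members to the Ctrl-D mean were 2.07-fold and 2.18-fold.

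**Figure D1:**
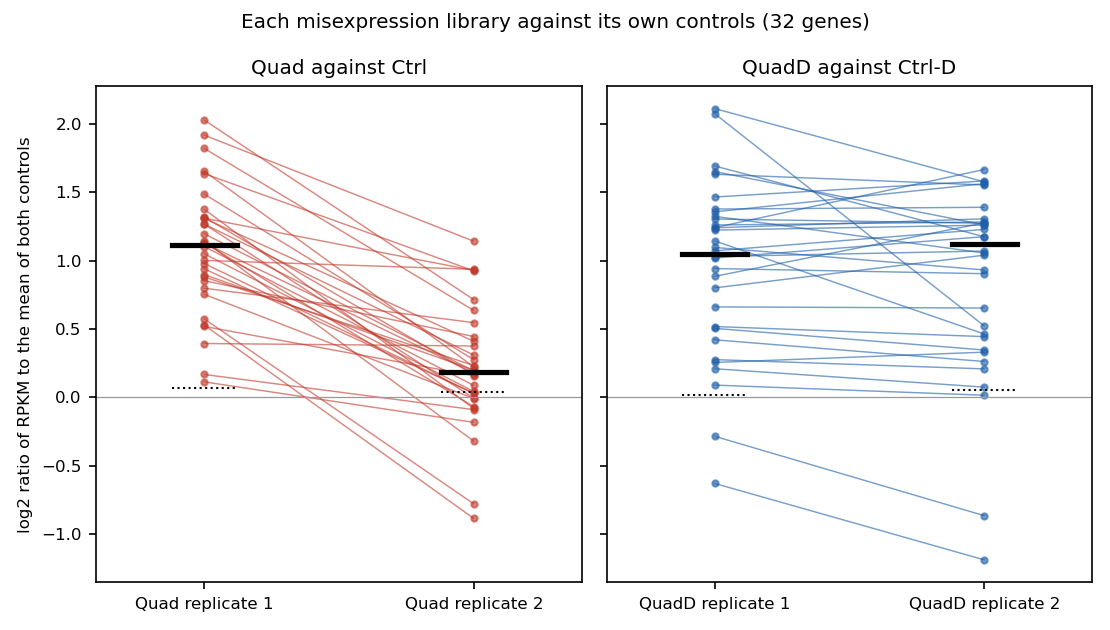
Log2 ratio of RPKM in each Quad library (left) and each QuadD library (right) to the mean of both controls of the same experiment, with 1 line for each of the 32 genes; thick bars are medians over the members tested and dotted bars are medians over all genes tested. Every line on the left is higher in replicate 1 than in replicate 2, with medians of 1.12 and 0.19, while on the right the medians are 1.05 and 1.12.

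Among the core SNAREs, nSyb, the synaptobrevin of neuronal vesicles, had 60.1 and 32.3 RPKM in Quad replicates 1 and 2, against 24.0 and 24.6 RPKM in Ctrl. In QuadD it had 38.5 and 41.7 RPKM against 12.9 and 15.0 RPKM in Ctrl-D. Both groups lay clear of their controls, and QuadD replicates stood close together where Quad replicates did not. The gene rose in QuadD (1.46 ± 0.12, adjusted p = 0.000377) and in Quad (0.84 ± 0.27, adjusted p = 0.046); the Quad call did not hold without Ctrl replicate 1 (0.82), without Ctrl replicate 2 (0.85) or with RLE scaling (0.75). Syx1A, the syntaxin of the plasma membrane, had 60.4 and 50.7 RPKM in Quad against 35.6 and 33.9 RPKM in Ctrl, and 56.8 and 53.9 RPKM in QuadD against 40.3 and 39.0 RPKM in Ctrl-D. All misexpression libraries were above all controls for it. Syx1A rose in Quad (0.66 ± 0.12, adjusted p = 0.00719) and in QuadD (0.47 ± 0.09, adjusted p = 0.00646), although not without QuadD replicate 1 (0.44). Snap25, the third SNARE of the release machine, was low, at 3.70 and 1.63 RPKM in Quad against 1.31 and 0.785 RPKM in Ctrl. Its adjusted p was 0.0878 in Quad (0.79 ± 0.32, and 1.21 without replicate 2) and 0.365 in QuadD (0.22 ± 0.19). In Quad, Snap25 passed with quantile normalization, with the replicate number as a block and with all 8 libraries in the fit. Snap24, a SNAP-25 relative outside the 32 genes, was more abundant, at 94.2 and 85.1 RPKM in Quad against 50.7 and 48.0 RPKM in Ctrl, and rose (0.85 ± 0.10, adjusted p = 0.00151). It also rose in QuadD (0.67 ± 0.08, adjusted p = 0.00123).

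The proteins that fold, clamp or recycle SNAREs behaved in several ways. Csp, a cysteine string protein that keeps SNAP-25 folded on the vesicle, was the most abundant member. It had 248.6 and 237.7 RPKM in Quad against 125.6 and 122.7 RPKM in Ctrl, and 328.6 and 366.1 RPKM in QuadD against 168.6 and 155.7 RPKM in Ctrl-D. The groups were well apart in both experiments, and for this gene the Quad replicates were close to each other. Csp rose by 0.96 ± 0.08 in Quad (adjusted p = 0.000557) and by 1.09 ± 0.09 in QuadD (adjusted p = 0.000382). Complexin, encoded by cpx, holds the assembled SNAREs until calcium arrives. Its level was 43.9 and 21.7 RPKM in Quad against 19.8 and 21.1 RPKM in Ctrl, and 35.4 and 47.5 RPKM in QuadD against 13.7 and 16.2 RPKM in Ctrl-D. Replicate 1 alone thus stood well above Ctrl in Quad, while both QuadD libraries stood well above Ctrl-D. It rose in QuadD (1.40 ± 0.17, adjusted p = 0.00131) and did not pass in Quad (0.58 ± 0.31, adjusted p = 0.165), except without Quad replicate 2 (1.07). The NSF gene comt, whose ATPase takes spent SNARE complexes apart, had 19.99 and 15.1 RPKM in Quad against 10.7 and 11.5 RPKM in Ctrl, and rose (0.61 ± 0.19, adjusted p = 0.0376). Leaving out Quad replicate 1 (0.41), Ctrl replicate 1 (0.56) or Ctrl replicate 2 (0.66) ended that call, as did RLE scaling (0.52) and the replicate number as a block (adjusted p = 0.0505). In QuadD, comt rose from 8.88 and 8.95 to 18.2 and 18.7 RPKM (0.97 ± 0.13, adjusted p = 0.00165). Rop, the Sec1/Munc18 partner of syntaxin, was between 80.3 and 96.7 RPKM in all 8 libraries. Its log2 fold change was 0.039 in Quad (interval from -0.24 to 0.31) and 0.053 in QuadD (interval from -0.15 to 0.26); with RLE scaling it was -0.050 and -0.012.

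**Figure D2:**
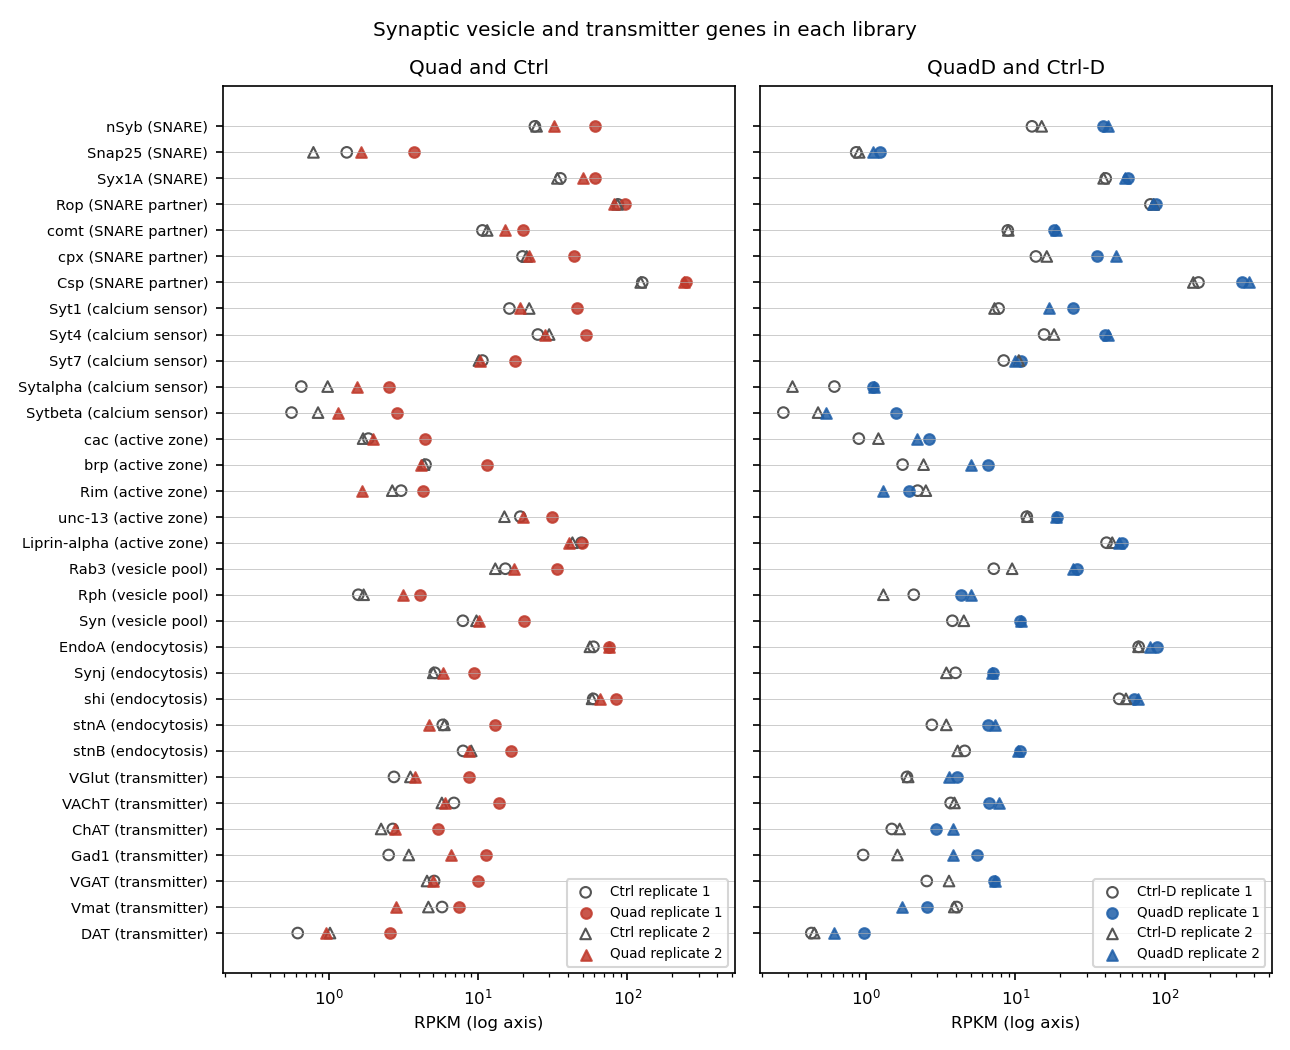
RPKM (log axis) of the 32 genes, with their role in parentheses, in Quad and Ctrl libraries (left) and in QuadD and Ctrl-D libraries (right); filled symbols are misexpression libraries, open symbols are controls, circles replicate 1 and triangles replicate 2. On the left the filled circles lie to the right of both open symbols in every row, while the filled triangles do so for 19 of 32 genes.

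Synaptotagmins bind calcium and link it to membrane fusion. Syt1, the sensor for fast release, had 45.9 RPKM in Quad replicate 1 and 19.0 RPKM in replicate 2, against 16.2 and 21.9 RPKM in Ctrl. In QuadD it had 24.1 and 16.9 RPKM against 7.71 and 7.24 RPKM in Ctrl-D. Quad overlapped Ctrl and QuadD did not overlap Ctrl-D. Syt1 rose in QuadD (1.32 ± 0.19, adjusted p = 0.00242), and in Quad it missed the threshold (0.63 ± 0.39, adjusted p = 0.227) but passed without replicate 2 (1.24). Syt4, which is known for a role on the postsynaptic side of the fly neuromuscular junction, went from 15.5 and 18.1 RPKM in Ctrl-D to 39.8 and 41.6 RPKM in QuadD (1.23 ± 0.12, adjusted p = 0.000611). In Quad it had 52.7 and 28.0 RPKM against 25.1 and 29.9 RPKM (0.48 ± 0.28, adjusted p = 0.209; 0.92 and passed without replicate 2). Here too only the first Quad library exceeded Ctrl. Syt7 had 17.5 and 10.3 RPKM in Quad and between 8.34 and 10.9 RPKM in the other 6 libraries, and passed in neither comparison (adjusted p = 0.298 and 0.501), although it passed in Quad without replicate 2 (0.70). Sytalpha and Sytbeta were the lowest of the group, from 0.278 to 2.86 RPKM. Sytalpha lay above its controls in both experiments and missed the threshold in each (adjusted p = 0.0501 in Quad and 0.067 in QuadD), and Sytbeta was too low to be tested in QuadD.

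Of the 5 active zone genes, 3 rose in QuadD, where 27.4% of all genes rose, and none in Quad, where 24.9% did. The gene brp, for the Bruchpilot scaffold of the active zone, had 6.55 and 5.0 RPKM in QuadD against 1.75 and 2.42 RPKM in Ctrl-D and rose (1.13 ± 0.21, adjusted p = 0.00595). In Quad it had 11.4 RPKM in replicate 1 and 4.14 RPKM in replicate 2, with Ctrl at 4.43 and 4.33 RPKM (0.57 ± 0.40, adjusted p = 0.283); it passed without replicate 2 (1.20). The second library was thus below both controls. The calcium channel gene cac had 2.62 and 2.18 RPKM in QuadD against 0.891 and 1.21 RPKM in Ctrl-D and rose (0.73 ± 0.20, adjusted p = 0.0224), but in none of the fits that left out 1 of the 4 libraries (0.62 to 0.84). The priming factor gene unc-13 rose from 11.9 and 12.02 RPKM to 18.9 and 18.8 RPKM (0.62 ± 0.12, adjusted p = 0.00696). In Quad, cac and unc-13 had adjusted p = 0.197 and 0.107, and both passed without replicate 2 (0.97 and 0.85). Rim, which links the active zone to Rab3 on vesicles, went the other way in QuadD, at 1.94 and 1.3 RPKM against 2.21 and 2.51 RPKM in Ctrl-D, and did not pass (-0.37 ± 0.21, adjusted p = 0.174). The scaffold gene Liprin-alpha varied little, from 40.5 to 51.7 RPKM over the 8 libraries, and passed in neither comparison (adjusted p = 0.877 and 0.075).

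Of the 3 genes for the vesicle pool, 3 rose in QuadD and 1 in Quad, against the same shares of 27.4% and 24.9% of all genes. Rab3, the small GTPase of synaptic vesicles, had 25.8 and 24.4 RPKM in QuadD against 7.15 and 9.50 RPKM in Ctrl-D, and 33.9 and 17.5 RPKM in Quad against 15.2 and 13 RPKM in Ctrl. It rose in QuadD (1.5 ± 0.16, adjusted p = 0.000868), with the largest log2 fold change of any member there. In Quad, Rab3 had 0.75 ± 0.30 (adjusted p = 0.0807), and 1.21 without replicate 2. Rab3 passed there with quantile normalization, with the replicate number as a block and with all 8 libraries in the fit. The deposited raw reads of Rab3 ran parallel to its RPKM, with 452 and 182 reads in QuadD, 52 and 66 in Ctrl-D, 494 and 267 in Quad and 228 and 189 in Ctrl. Synapsin, encoded by Syn, clusters vesicles in reserve. Its RNA had 10.8 and 10.8 RPKM in QuadD against 3.78 and 4.51 RPKM (1.20 ± 0.16, adjusted p = 0.00177), and 20.2 and 10.1 RPKM in Quad against 7.88 and 9.73 RPKM (0.65 ± 0.32, adjusted p = 0.139; 1.12 and passed without replicate 2). The rabphilin gene Rph, whose product binds Rab3 in mammals, had 4.06 and 3.12 RPKM in Quad against 1.57 and 1.70 RPKM in Ctrl and rose (0.79 ± 0.21, adjusted p = 0.0233). That call was lost without Quad replicate 1 (0.64), Ctrl replicate 1 (0.75) or Ctrl replicate 2 (0.83). In QuadD, Rph rose from 2.08 and 1.3 to 4.33 and 4.995 RPKM (1.09 ± 0.21, adjusted p = 0.00732).

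Of the 5 endocytosis genes, 5 rose in QuadD, by different amounts, and 1 rose in Quad, where 27.4% and 24.9% of all genes rose. The stoned genes stnA and stnB, which are known to be expressed from 1 dicistronic transcript and have the same annotated span, moved together. For stnB the levels were 10.7 and 10.5 RPKM in QuadD against 4.57 and 4.10 RPKM in Ctrl-D (1.12 ± 0.15, adjusted p = 0.00194), and for stnA they were 6.503 and 7.25 RPKM against 2.75 and 3.44 RPKM (0.95 ± 0.18, adjusted p = 0.00609). In Quad, stnA had 12.9 RPKM in replicate 1 and 4.69 RPKM in replicate 2, on either side of Ctrl at 5.78 and 5.93 RPKM, and stnB had 16.6 and 8.61 RPKM against 7.90 and 8.97 RPKM. Neither passed in Quad (adjusted p = 0.474 and 0.24), and both passed without replicate 2 (1.02 and 0.90). Synj, the synaptojanin that strips the clathrin coat, rose in QuadD from 3.96 and 3.44 to 7.12 and 6.93 RPKM (0.77 ± 0.16, adjusted p = 0.00919), not without QuadD replicate 1 (0.76). EndoA, the endophilin that shapes the vesicle neck, was higher by about the same small amount in both experiments, at 75.7 and 74.7 RPKM against 59.2 and 56.0 RPKM (0.38 ± 0.10, adjusted p = 0.0194) and at 89.5 and 80.2 RPKM against 67.0 and 66.8 RPKM (0.34 ± 0.09, adjusted p = 0.0219). Its call was lost without either Ctrl library (0.42 and 0.34), without either QuadD library (0.26 and 0.42) and, in QuadD, with RLE scaling. The dynamin gene shi, which cuts vesicles free, rose in QuadD (0.29 ± 0.10, adjusted p = 0.0417) and stood at 83.7 and 65.2 RPKM in Quad against 58.9 and 57.9 RPKM in Ctrl (adjusted p = 0.0879). The QuadD call for shi was lost without QuadD replicate 1 (0.33), QuadD replicate 2 (0.25) or Ctrl-D replicate 1 (0.22), with RLE scaling and with the replicate number as a block; in Quad shi passed without replicate 2 (0.51), as did Synj (0.78).

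Transmitter genes cover glutamate, acetylcholine, GABA and the monoamines. Gad1, the enzyme that makes GABA, had the largest log2 fold change among the members in Quad. It had 11.2 and 6.54 RPKM in Quad against 2.51 and 3.42 RPKM in Ctrl, and 5.55 and 3.83 RPKM in QuadD against 0.952 and 1.62 RPKM in Ctrl-D. All misexpression libraries exceeded their controls. Gad1 rose by 1.28 ± 0.28 in Quad (adjusted p = 0.0124; adjusted p = 0.0522 without Ctrl replicate 1, at 1.12) and by 1.32 ± 0.25 in QuadD (adjusted p = 0.00604). VGAT, which loads GABA into vesicles, had 7.15 and 7.33 RPKM in QuadD against 2.54 and 3.59 RPKM (1.03 ± 0.19, adjusted p = 0.00583), and 9.93 and 4.94 RPKM in Quad against 5.06 and 4.53 RPKM (adjusted p = 0.244; 0.92 and passed without replicate 2). Its raw reads numbered 312 and 136 in QuadD, against 46 and 62 in Ctrl-D. The synthesis and the loading gene of GABA thus both rose in QuadD, and in Quad replicate 2 the first was above Ctrl while the second lay within it. The transporter gene VGlut, which loads glutamate, the transmitter of fly motor neurons, rose in QuadD from 1.87 and 1.91 to 4.04 and 3.61 RPKM (0.74 ± 0.17, adjusted p = 0.0141). It no longer passed without either QuadD library (0.67 and 0.80) or without Ctrl-D replicate 2 (0.75). In Quad, VGlut had 8.72 and 3.77 RPKM against 2.72 and 3.51 RPKM (0.73 ± 0.35, adjusted p = 0.134; 1.25 and passed without replicate 2).

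Acetylcholine is made by ChAT and loaded by VAChT, 2 genes of 1 nested locus whose annotated spans overlap. VAChT had 6.6 and 7.78 RPKM in QuadD against 3.68 and 3.90 RPKM in Ctrl-D and rose (0.77 ± 0.17, adjusted p = 0.0103), not without QuadD replicate 2 (0.67). ChAT rose from 1.48 and 1.67 to 2.91 and 3.82 RPKM (0.75 ± 0.20, adjusted p = 0.0196). It no longer passed without QuadD replicate 2 (0.60), Ctrl-D replicate 1 (0.70) or Ctrl-D replicate 2 (0.81). In Quad, VAChT had 13.8 and 6.0 RPKM against 6.87 and 5.70 RPKM, and ChAT had 5.36 and 2.78 RPKM against 2.67 and 2.23 RPKM. Neither passed there (adjusted p = 0.299 and 0.192), and both did without replicate 2 (1.02 and 0.88). The sources used here do not say how reads in overlapping genes were assigned, and the separate levels of ChAT and VAChT, and of stnA and stnB, are uncertain.

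Of the monoamine genes, Vmat fell in QuadD. Vmat, which loads dopamine, serotonin and other amines into vesicles, had 2.56 and 1.74 RPKM in QuadD against 4.04 and 3.89 RPKM in Ctrl-D and was the member that fell (-0.67 ± 0.20, adjusted p = 0.0319). That call was lost without QuadD replicate 2 (-0.48) or either Ctrl-D library (-0.64 and -0.69), with quantile normalization (-0.35), without the filter on low values and with all 8 libraries in the fit. In Quad, Vmat had 7.47 RPKM in replicate 1 and 2.80 RPKM in replicate 2, above and below Ctrl at 5.72 and 4.63 RPKM. Its fold change in Quad was -0.12 (adjusted p = 0.821) and, without replicate 1, -0.69 (adjusted p = 0.0418). DAT, the dopamine transporter of the plasma membrane, stayed between 0.428 and 2.56 RPKM and was too low to be tested in QuadD; it passed in Quad only without replicate 2 (0.98). The order of the transmitter genes by mean RPKM differed between groups. VAChT led in Quad (9.88) and Ctrl (6.28), VGAT in QuadD (7.24, with VAChT at 7.19) and Vmat in Ctrl-D (3.96, with VAChT at 3.79). In each of these last pairs the libraries overlapped, as did those of VAChT and Gad1 in Quad and of VAChT and Vmat in Ctrl. Gad1 (6.54 RPKM) exceeded VAChT (6.0 RPKM) in Quad replicate 2. Of the 7 genes, Gad1 ranked 2 in Quad (8.87) but 5 in Ctrl (2.96), and 3 in QuadD (4.69) but 6 in Ctrl-D (1.29), while DAT was last in every group (0.438 to 1.76).

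**Figure D3:**
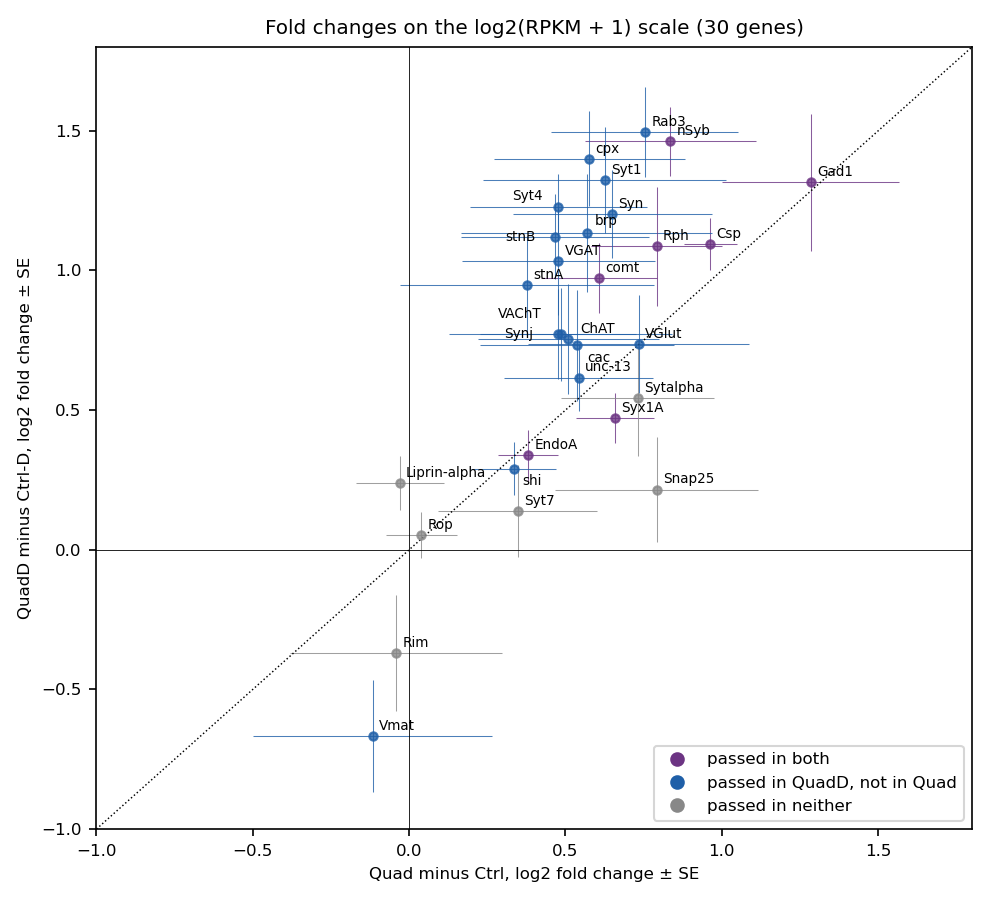
Log2 fold change in Quad (horizontal) against that in QuadD (vertical) for the 30 members tested in both, with SE bars and a dotted line of equality. Of these genes 7 rose in both comparisons and lie to the right of 0, and Rab3 (1.5), nSyb (1.46) and cpx (1.40) are at the top.

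The fold changes of the 30 members tested in both comparisons had a Pearson r of 0.71 and a Spearman rho of 0.58, given as a description across genes that share libraries. The test of the difference between both effects called none of the 32 members in limma. None had an unadjusted p under 0.05, and Syt4 came nearest (unadjusted p = 0.0601). Of 10775 genes tested, 1759 had an unadjusted p under 0.05. Of all genes 2.7% passed in this test, 1.76% with a more positive effect in Quad and 0.937% with a more positive effect in QuadD. Without Quad replicate 1, 6 of 31 members passed, all with a larger rise in QuadD, where 4.64% of all genes passed and 2.34% in that direction: cpx (-1.31), stnA (-1.22), Rab3 (-1.20), Syt4 (-1.19), stnB (-1.09) and nSyb (-1.07). For these 6 genes the call of a difference therefore turned on 1 library.

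Members of low and middle abundance had larger ratios than abundant ones. The 6 members with a mean of 40 RPKM or more (Csp, EndoA, Liprin-alpha, Rop, Syx1A and shi) had a median ratio of group means of 1.29-fold in Quad and 1.25-fold in QuadD, with Csp at 1.96-fold and 2.14-fold. The 14 members from 5 to 40 RPKM had medians of 1.56-fold and 2.39-fold, and the 12 members under 5 RPKM had medians of 2.08-fold and 2.21-fold. In Quad 3 of 6 abundant, 2 of 14 middle and 2 of 12 low members rose, against 24.9% of all genes. In QuadD 4 of 6, 13 of 14 and 6 of 10 tested rose, against 27.4%. Across the 32 members, the level in Ctrl-D and the log2 ratio in Quad, which come from different libraries, had a Spearman rho of -0.60, and the level in Ctrl and the log2 ratio in QuadD had -0.21.

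Driver-only embryos of both experiments were compared, since they differ in experiment and lane but not in labelled genotype. Ctrl lay above Ctrl-D without overlap for 25 of 32 members and below for 3 (Csp, EndoA and Syx1A), where 29.3% of all genes lay above and 31.2% below. Syt1 had the largest difference, 16.2 and 21.9 RPKM in Ctrl against 7.71 and 7.24 RPKM in Ctrl-D (1.23 ± 0.35, adjusted p = 0.0935). The median difference was 0.39 over the members and -0.0096 over all genes. No member passed in limma, where 0.752% of all genes passed as higher and 0.483% as lower. An unadjusted p under 0.05 was found for 10 members, and the share of all genes at that threshold was not counted. Without Quad replicate 1, or without Quad replicate 2, which changes the spread shared by the fit, 9 members passed (8 higher and 1 lower in Ctrl), in fits where 8.98% and 9.21% of all genes passed. Experiment and lane cannot be told apart in this comparison.

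Other genes of vesicle release and recycling, outside the 32, were also counted. Of 29 tested in Quad, 6 rose and 4 fell, shares no higher than the 24.9% and 22.6% of all genes. Of 28 tested in QuadD, 12 rose and 3 fell, where 27.4% and 27.7% of all genes did. Syngr, for the vesicle membrane protein synaptogyrin, rose in Quad (1.04 ± 0.19) and QuadD (1.43 ± 0.16), and Rbp, for the RIM-binding protein of the active zone, went from 3.28 and 3.60 RPKM to 11.05 and 12.03 RPKM in QuadD and rose (1.5 ± 0.16). The membrane traffic genes nwk (1.22 ± 0.14 in QuadD), Snap24 (0.85 in Quad and 0.67 in QuadD) and alphaSnap (0.30 ± 0.09 in Quad) rose as well. Amph, a membrane-bending protein that is also prominent in fly muscle, fell by 1.56 in Quad and by 1.57 in QuadD. The dysbindin gene Dysb fell by 1.61 and 1.27, and btsz, which encodes a synaptotagmin-like protein of epithelia, fell by 0.89 in Quad. Syb, the synaptobrevin of non-neuronal cells, fell in Quad (-0.28) and in QuadD (-0.63).

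Other transmitter genes, of which 13 were tested in Quad and 12 in QuadD, gave 3 rises and 5 falls in Quad (24.9% and 22.6% of all genes) and 2 rises and 5 falls in QuadD (27.4% and 27.7% of all genes). Pu, the GTP cyclohydrolase that makes the cofactor for amine synthesis and also serves eye pigment, fell from 30.8 and 31.5 RPKM to 2.33 and 1.78 RPKM in Quad and from 20.5 and 28.8 RPKM to 6.4 and 6.16 RPKM in QuadD (log2 -3.40 and -1.80). The glutamine synthetase genes Gs1 and Gs2 fell in Quad (-0.92 and -1.06) and in QuadD (-1.08 and -2.78). Eaat1, a glutamate transporter of glia, rose by 1.15 ± 0.19 and 0.92 ± 0.19. Trh (0.90) and Tbh (0.74), the enzymes for serotonin and octopamine synthesis, rose in Quad, and prt, a vesicular transporter related to Vmat, rose in QuadD (0.85).

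Markers of neurons and of other cell types are given beside these values, because whole embryos hold all of them. Their counts stand against shares over all genes of 24.9% rising and 22.6% falling in Quad and 27.4% and 27.7% in QuadD. Of 10 neuron markers 8 rose and 2 fell in QuadD, and 1 rose and 3 fell in Quad. Their summed level was 789.6 and 796.4 RPKM in QuadD, 470.6 and 489.2 RPKM in Ctrl-D, 817.3 and 531.7 RPKM in Quad replicates 1 and 2, and 603.5 and 585.9 RPKM in Ctrl. The pan-neuronal gene elav had 223.7 and 165.1 RPKM in Quad against 124.5 and 107.5 RPKM, and 257.6 and 240.3 RPKM in QuadD against 118.9 and 111.6 RPKM. Summed neuron markers were thus also higher in Quad replicate 1 than in replicate 2. Of 8 neuroblast markers, genes of neural stem cells and their lineage, 8 rose in Quad and 7 in QuadD. Their sum was 1527 and 1478 RPKM in Quad against 597.9 to 671.6 RPKM in Ctrl. It was 1947 and 1944 RPKM in QuadD against 839.4 and 715.7 RPKM in Ctrl-D. The first of them, dpn, had 81.4 and 87.0 RPKM in Quad against 36.8 and 33.1 RPKM in Ctrl. The sum of muscle markers was 3708 RPKM in Quad replicate 1 and 2101 RPKM in replicate 2, with 3268 and 4449 RPKM in Ctrl, 1585 and 1401 RPKM in QuadD and 2247 and 2578 RPKM in Ctrl-D, and 2 of 8 fell in Quad and 7 of 8 in QuadD. Mef2, a transcription factor of muscle, was at 105.9 and 121.0 RPKM in the Quad libraries, lower than the 155.2 and 146.6 RPKM of Ctrl.

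Glia markers summed to between 728.2 and 856.3 RPKM in Quad and QuadD libraries and between 623.5 and 658.6 RPKM in controls, with 5 of 9 rising and 3 falling in Quad and 3 rising and 3 falling in QuadD, the latter near the shares of all genes. The gene nrv2 made up the largest part of each sum. It had 481.3 and 436.1 RPKM in QuadD against 346.3 and 346.0 RPKM in Ctrl-D, so the gap between the QuadD and Ctrl-D sums was mostly that of nrv2. The pan-glial gene repo had 63.4 and 45.3 RPKM in Quad, above Ctrl at 26.04 and 23.4 RPKM. The 3 glia markers that fell in Quad were Gli (-1.34), alrm (-1.79) and gcm2 (-0.69). Epidermis markers, among them Gasp (33.0 and 21.6 RPKM in Quad against 229.7 and 286.4 RPKM in Ctrl), which encodes a chitin-binding protein, summed to between 29.1 and 106.4 RPKM in Quad and QuadD and between 891.7 and 1795 RPKM in controls, and all 6 fell in both. No gene of these marker lists was below 1 RPKM in any library. The part of embryo age, of cell composition and of these markers in the levels of the synaptic genes was not tested.

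**Figure D4:**
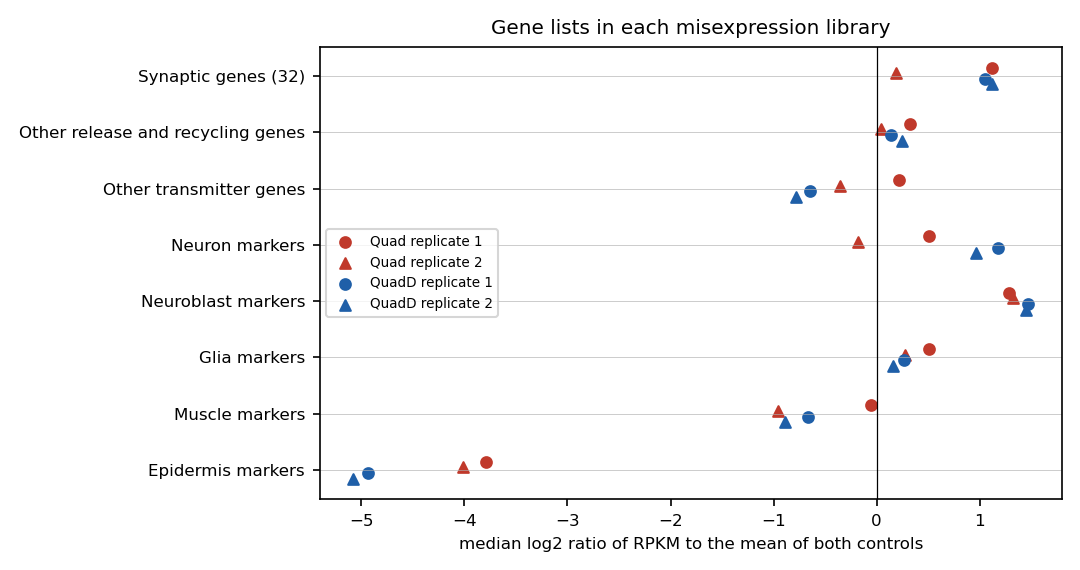
Median log2 ratio of RPKM to the mean of both controls, for the synaptic genes, the 2 lists of other pathway genes and the 5 marker lists, in each Quad library (red) and QuadD library (blue); circles are replicate 1 and triangles replicate 2. The synaptic genes stand at 1.12 and 0.19 in the Quad replicates and the muscle markers at -0.05 and -0.95, whereas the neuroblast markers stand at 1.28 and 1.32.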

How the data were processed

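The authors deposited 1 table per experiment, with RPKM per gene and library on a linear scale, the log2 of these RPKM values and a raw read count, per the file headers. Which aligner, counter, build and gene models were used, and whether counting used strand, is not given in the sources used here. No coordinates are therefore printed. The deposited raw reads ran parallel to RPKM (within 1% or rounding) for 4513 genes, 4 of them members, and were incomplete for many others, so RPKM was tested. The deposited raw reads sum to between 2765722 and 6740835 per library. The gene models of 32 members were found in the RefSeq table of Release 6, used for overlaps between genes.

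From RPKM, log2(RPKM + 1) was computed and a gene entered a fit if 2 or more of its libraries reached 1 RPKM. The test was that of limma 3.58.1 (R 4.3.3), moderated with a trend, on 4 libraries per comparison, or on all 8 for the difference of effects and for Ctrl against Ctrl-D. Adjustment was by Benjamini-Hochberg over all genes tested, with a threshold of 0.05, and intervals are 95%. The fit was tested on simulated data. The labels call the replicates biological; with 2 libraries a group, p-values measure the spread between these samples. Replicates differed beyond sampling noise in their raw reads (chi-square per degree of freedom from 5.51 to 19.5). No interval for counting error is given for RPKM, since raw reads are partial.

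The members and lists were chosen with earlier results of these data known. All 32 members are named. Of the other pathway lists, the text names the 3 genes per list, direction and comparison with the smallest p among those that passed, and of each marker list its first gene. The glia marker nrv2 is named as well, for its part in the sums, and so are the neuron and glia markers that fell in Quad. The choline transporter gene of the transmitter list was not analysed here. Further alternatives were another pseudocount (0.1), other filters, 2 scalings, the replicate number as a block, limma's voom on raw reads and leaving out each library.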

Additional observations from a re-analysis of the deposited data

Results flagged for a closer look

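For 2 genes of the transmitter list the effects in Quad and QuadD differed by the test of the difference itself, on all 8 libraries. Gs2, a glutamine synthetase gene, fell more in QuadD, with a difference of effects (Quad minus QuadD) of 1.71 ± 0.15 (limma, adjusted p = 0.000777). It had 49.9 and 58.4 RPKM in Quad against 106.8 and 121.8 RPKM in Ctrl, and 15.6 and 16.6 RPKM in QuadD against 117.0 and 115.8 RPKM in Ctrl-D. Pu fell more in Quad, with a difference of -1.60 ± 0.26 (adjusted p = 0.0147). No synaptic gene among the 32 members met this test.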

How the results depend on the processing

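The count of members called in Quad was 7. It was 2 without a filter on low values, 14 with quantile normalization, 11 with all 8 libraries in the fit, and from 2 to 26 when each library was left out. The count in QuadD was 24 (55% of all genes), 9 without a filter (18.1%) and 19 with all 8 libraries in the fit (51.6%). That fit of all 8 libraries ended the QuadD calls of VAChT, VGlut, cac, shi and Vmat. Without the filter on low values the QuadD calls of ChAT, EndoA, Gad1, Rph, Synj, Syt1, VAChT and VGAT were lost. Those of VGlut, Vmat, brp, cac, cpx, shi and stnA were lost as well. In Quad the same setting ended the calls of Gad1, Rph, Syx1A, comt and nSyb. The median log2 fold change of the members in QuadD ran from 0.78 to 0.94 when each library was left out. The counts for the difference of effects and for Ctrl against Ctrl-D were 0 in each, and from 0 to 6 and from 0 to 9 when each library was left out. Other pathway genes called numbered 18 of 42 tested in Quad (47.5% of all genes) and 8 of 47 without a filter (15.6%). In QuadD they numbered 22 of 40 (55%), and 14 of 27 with a filter at 5 RPKM, which tests fewer genes. With each library left out, their median log2 fold change ran from -0.058 to 0.15 in Quad and from 0.064 to 0.20 in QuadD. The cause of the other shifts was not tested. With the filter at 5 RPKM, 59.1% of all genes tested were called in QuadD. Quantile normalization moved the median of all genes in QuadD from 0.034 to 0.14.

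Replicate numbers gave no pairing by the labels, and the replicate 2 minus replicate 1 differences of the 2 groups of an experiment had a Pearson r of -0.043 and -0.095 across genes. With the replicate number as a block, 9 members were called in Quad and 23 in QuadD, where 45.3% and 52.3% of all genes were called. Some members that missed the threshold in Quad passed under alternatives that kept both Quad replicates. Quantile normalization added Snap25, Sytalpha, Sytbeta, Rab3, Synj, VGlut and ChAT. The block added Snap25, Rab3 and unc-13, and the fit of all 8 libraries added Snap25, Sytalpha, Rab3 and shi. Of the single-gene values under alternatives, 545 kept direction and call, 64 lost a call, 35 gained one and 17 changed sign, none of them called in either setting. In Quad these were Rop (-0.050 with RLE scaling, -0.049 with quantile normalization, -0.088 to 0.17 leaving out each library), Rim (0.21 with quantile normalization, -0.53 to 0.45), Vmat (0.11 with quantile normalization, -0.69 to 0.46), and, leaving out each library, Liprin-alpha (-0.17 to 0.11), Syt7 (-0.0067 to 0.70), brp (-0.065 to 1.20), stnA (-0.27 to 1.02) and VAChT (-0.053 to 1.02). In QuadD they were Rop (-0.012 with RLE scaling) and Syt7 (-0.014 to 0.29). The voom fit covers 4 members (Rab3, Syt4, VAChT and VGAT), so it gives no count of members; all 4 passed in QuadD (0.92 to 1.65) and none in Quad. Depth limits the low members most: VAChT in Ctrl-D, at 3.68 and 3.90 RPKM, rests on 70 and 71 raw reads. Members higher in Quad replicate 1 than in replicate 2 numbered 32 with quantile normalization and 31 with RLE scaling, settings added once the values were known.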
